A study of Rattus norvegicus with 10 samples.

Results

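The rat major histocompatibility complex is called RT1, and its class I and class II genes were followed here through 4 groups of knee cartilage. The members were taken by name, as every row of the expression table whose gene symbol begins with RT1-, which gave 49 of 17419 transcripts. Of these, 39 belonged to class I and 10 to class II, the latter being the genes of the RT1-B, RT1-D, RT1-DM, RT1-DO and RT1-H groups. The family drew attention because the class II chain RT1-Da and its partner Cd74 were higher in the SHAM group than in the OAC group in an earlier look at the same libraries. The contrast of SHAM with OAC is therefore given below as a description with no test. The contrasts of SHAM with HC and of KT with SHAM use the same SHAM libraries, and that of KT with OAC the same OAC libraries, so they are not independent of it.

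Class I molecules pair a heavy chain with beta-2-microglobulin and display peptides cut by the proteasome inside the cell, which CD8 T cells and natural killer cells inspect. Most nucleated cells make them, chondrocytes included. Class II molecules pair an alpha with a beta chain, are loaded with peptides in endosomes with the help of the invariant chain Cd74, and are read by CD4 T cells. They are carried mainly by macrophages, dendritic cells and B cells, and interferon gamma can switch them on in other cells through the transactivator Ciita. RT1 is highly polymorphic between rat strains and rich in near-identical gene copies.

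Messenger RNA was read from the blade-dissected surface of rat knee cartilage in 10 libraries. The 2 HC libraries came from untreated rats labelled wild type. Papain, a protease that strips proteoglycan from cartilage, had been injected with L-cysteine in the other 3 groups, a chemical model of osteoarthritis. The 3 OAC libraries were taken 4 weeks after papain with no vector. The 3 SHAM libraries were taken 10 weeks after papain, with an adeno-associated virus vector carrying GFP (AAV-DJ-GFP) given at 4 weeks. The 2 KT libraries were taken at the same 10 weeks, with AAV-DJ-Klotho and AAV-DJ-TGFBR2 given at 4 weeks, vectors for αKlotho and a soluble TGF-beta receptor. The labels do not name the promoters of the vectors. All labels give an age of 5 months, and none gives a strain. Whether each library of a group is another animal is not stated, so that a p-value here reflects the spread between libraries, some of it perhaps technical.

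Levels are in FPKM, which counts the fragments of a gene per kilobase of its exons in every 1000000 fragments, so that genes can be compared per length. In units of 1000000, between 52.4 and 70.9 reads were recovered per library, of which 58.6 to 64.4% lay on listed genes. The libraries held cartilage: all 11 chondrocyte markers found in the table were expressed, with summed levels of 4867 to 8485 FPKM in HC, 5809 to 8300 in OAC, 5873 to 9168 in SHAM and 6990 to 10077 in KT. Markers of other tissue were present too. Skeletal muscle genes summed to 19122 FPKM in HC replicate 1 and to between 54.7 and 3527 in the other 9 libraries.

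Of the 49 RT1 genes, 34 reached the mean of 0.5 FPKM over the 10 libraries that was required for a test, 27 in class I and 7 in class II. The lowest mean among them was 1.10 FPKM, and the highest among the other 15 was 0.427. RT1-S2 alone passed the filter only through its SHAM libraries. RT1-M10-1, RT1-M4 and RT1-CE13 were listed at 0 in every library. Grouped by family, tested genes were 3 of 3 in RT1-A, the classical class I loci, 13 of 14 in RT1-CE, 6 of 6 in RT1-N, RT1-O and RT1-S, 3 of 5 in RT1-T and 2 of 11 in RT1-M, where RT1-Cl is counted. Every member lies on chromosome 20 of the rn6 build, between 154657 and 5418012, apart from RT1-CE13 on an unplaced piece of that chromosome.

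The class II genes not tested were RT1-DMa and RT1-DMb, which make the peptide editor of class II, and RT1-Ha. RT1-DMa had 0 to 8 reads per library, RT1-DMb 0 to 10 and RT1-Ha 0 to 1. All of these rows are marked by the authors as having 2 copies in the genome. Across the table the 507 rows marked with 2 copies had a median of 0.0016 FPKM, against 3.59 FPKM for the 16854 rows with 1 copy, and 88.2% of the former lay under 0.5 FPKM against 33.5% of the latter. A low value in such a row may therefore not measure the gene's RNA.

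The 7 measured class II genes encode chains of 3 molecules. RT1-Da is the alpha chain of the D molecule and RT1-Db1 and RT1-Db2 are beta chains of it, RT1-Ba and RT1-Bb are the alpha and beta chains of the B molecule, and RT1-DOa and RT1-DOb form a molecule that restrains the peptide editor and is known mainly from B cells. Stretches of their promoters are shown because class II genes are known to share an X box and a Y box that Ciita acts through, and because the levels of these 7 genes are described one by one in what follows. The windows searched ran from 250 bases before to 50 bases after the start site in RefSeq's GRCr8 assembly, and 41 of the 49 members had one, 32 in class I and 9 in class II. The stretches printed are RT1-Da (chr20:4515323-4515378, plus strand), RT1-Db1 (chr20:4560230-4560285, minus strand), RT1-Db2 (chr20:4541700-4541755, minus strand), RT1-DOa (chr20:4758518-4758573, minus strand), RT1-DOb (chr20:4627594-4627649, minus strand), RT1-Ba (chr20:4576971-4577026, plus strand) and RT1-Bb (chr20:4604167-4604222, minus strand). Each is written 5′ to 3′ on the gene's strand, with capitals marking TGATTGG, a Y-box core that contains ATTGG, and, where present, AGCAAC, a core of the X box.
RT1-Da: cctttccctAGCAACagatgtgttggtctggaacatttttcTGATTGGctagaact
RT1-Db1: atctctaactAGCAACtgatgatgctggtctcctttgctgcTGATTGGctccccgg
RT1-Db2: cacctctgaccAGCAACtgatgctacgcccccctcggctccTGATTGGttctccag
RT1-DOa: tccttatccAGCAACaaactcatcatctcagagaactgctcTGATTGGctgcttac
RT1-DOb: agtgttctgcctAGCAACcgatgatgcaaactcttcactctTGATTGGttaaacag
RT1-Ba: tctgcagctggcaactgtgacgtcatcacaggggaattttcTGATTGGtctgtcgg
RT1-Bb: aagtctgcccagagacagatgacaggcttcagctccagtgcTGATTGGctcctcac
The TGATTGG core stood in 9 of 9 class II promoters, in 15 of 32 class I promoters and in 7.06% of all 33469 promoters, on either strand. AGCAAC stood in 6 of 9 class II promoters, in 6 of 32 class I promoters and in 14.7% of all. The pair of AGCAAC at most 40 bases before TGATTGG was found in RT1-Da, RT1-Db1, RT1-Db2, RT1-DOa, RT1-DOb and RT1-Ha, at 29 to 32 bases between the first letters, and in 0.167% of all promoters. RT1-Ba and RT1-Bb hold the Y-box core without these exact X-box letters. A match is a description of the letters and not a measured binding site.

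RT1-Da (NM_001008847, chromosome 20 from 4127644 to 4132616 in rn6, minus strand) had the highest level of the family. Its libraries read 103 and 123 FPKM in HC, 164, 128 and 130 in OAC, 503, 945 and 616 in SHAM, and 223 and 477 in KT. The SHAM libraries lay above all others, the KT libraries between them and the OAC libraries, and HC lowest, with no overlap between any of the groups. RT1-Ba (NM_001008831, chromosome 20 from 4066133 to 4070726) read 66.8 and 82.1 FPKM in HC, 90.1, 103 and 107 in OAC, 289, 674 and 434 in SHAM, and 168 and 325 in KT. The groups had the same order, but KT replicate 2 lay above SHAM replicate 1.

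RT1-Db1 had levels of 36.3 and 53.4 FPKM in HC, 69.8, 52.8 and 49.5 in OAC, 215, 369 and 255 in SHAM, and 80.1 and 137 in KT. RT1-Bb read 23.3 and 26.7 FPKM in HC, 33.3, 38.8 and 28.7 in OAC, 105, 156 and 120 in SHAM, and 35.8 and 59.7 in KT. In both beta chains all SHAM libraries lay above all KT libraries, and KT replicate 1 of RT1-Bb lay within the range of OAC. The second D beta chain, RT1-Db2, was far lower per length, at 2.88 ± 0.179 FPKM in HC (SD, n = 2) and 19.7 ± 9.08 in SHAM (SD, n = 3). RT1-DOa and RT1-DOb were lower still, at group means of 1.24 to 4.74 and 2.05 to 4.00 FPKM. Within groups they varied widely: RT1-DOa ranged from 1.78 to 8.08 FPKM over the SHAM libraries and RT1-DOb from 1.16 to 4.92 over the OAC libraries.

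**Figure D1:**
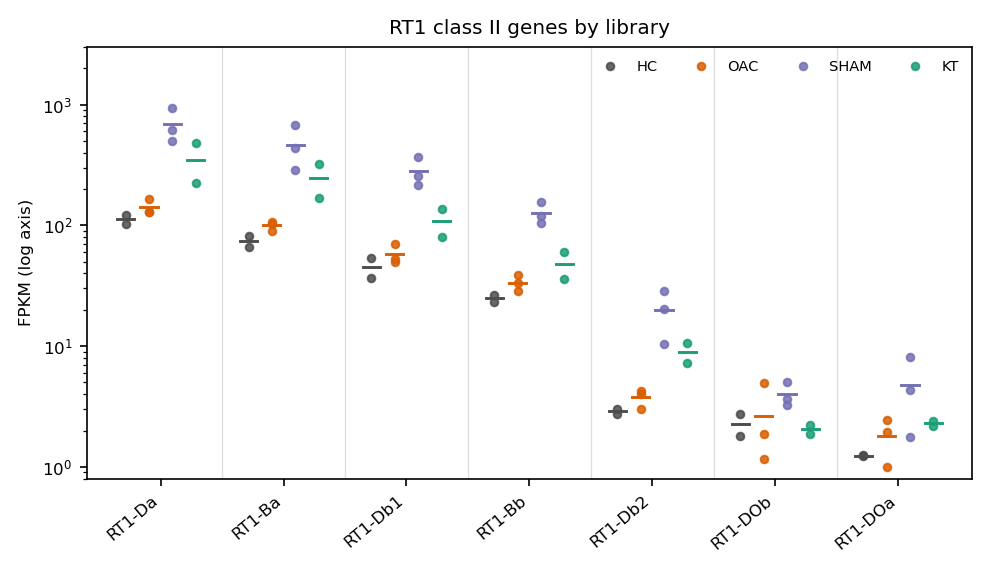
Level of the 7 measured class II genes in each library, in FPKM on a log axis. Each point is a library, coloured by group, and each bar is the group mean. RT1-Da runs from 103 FPKM in HC to 945 in SHAM, and the SHAM points of RT1-Da, RT1-Db1 and RT1-Bb lie above the points of the other 3 groups.

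Among class I genes the highest level was that of RT1-A2, a classical heavy chain (NM_001008829, chromosome 20 from 5375011 to 5378536 in rn6, plus strand), followed by RT1-CE5 (NM_001008843, chromosome 20 from 4892702 to 4896991, minus strand). Promoter stretches of RT1-A2, RT1-CE5, RT1-CE4 and RT1-S3 are shown as examples of high class I genes that hold the CCAATCA letters. Whether these letters go with the levels was not tested. They are, in GRCr8, RT1-A2 (chr20:4872725-4872826, plus strand), RT1-CE5 (chr20:3484127-3484228, minus strand), RT1-CE4 (chr20:3509220-3509321, minus strand) and RT1-S3 (chr20:2675398-2675499, plus strand). Capitals mark CCAATCA, which is TGATTGG on the other strand, and in RT1-S3 also TTTCTCTTTC, a match on the other strand to the core of an interferon-stimulated response element, searched as a pair of GAAA runs with any 2 bases between them.
RT1-A2: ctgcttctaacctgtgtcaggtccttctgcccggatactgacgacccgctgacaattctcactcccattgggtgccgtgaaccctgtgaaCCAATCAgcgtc
RT1-CE5: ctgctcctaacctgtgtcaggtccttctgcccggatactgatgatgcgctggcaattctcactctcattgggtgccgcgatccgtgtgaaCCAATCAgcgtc
RT1-CE4: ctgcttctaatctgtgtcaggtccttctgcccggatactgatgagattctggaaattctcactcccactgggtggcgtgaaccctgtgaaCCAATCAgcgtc
RT1-S3: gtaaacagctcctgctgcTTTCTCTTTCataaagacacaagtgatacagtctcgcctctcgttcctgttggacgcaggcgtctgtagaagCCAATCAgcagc
The first 3 are alike along their length and RT1-S3 is not. That core was found in 3 of 32 class I promoters, 0 of 9 class II promoters and 3.92% of all. TGNGTCA, a loose pattern that covers AP-1 type letters, stood in 14 of 32, 1 of 9 and 14.5%. Its matches in the RT1-A2, RT1-CE5 and RT1-CE4 stretches read TGTGTCA. It does not cover the cyclic AMP letters TGACGTCA, which were not searched and stand in the RT1-Ba stretch above. No match says only that the letters searched are not in the window.

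RT1-A2 read 32.7 and 63.4 FPKM in HC, 139, 86.5 and 65.9 in OAC, 318, 240 and 225 in SHAM, and 61.3 and 92.3 in KT. All OAC and SHAM libraries lay above all HC libraries, and the KT libraries spread over the upper HC and lower OAC values. RT1-CE5 read 30.8 and 37.9 FPKM in HC, 54.0, 48.5 and 52.4 in OAC, 167, 145 and 145 in SHAM, and 43.9 and 49.3 in KT. Its libraries agreed closely within groups, and those of KT and OAC overlapped. RT1-S3, in a block of non-classical genes, read 24.6 and 33.0 FPKM in HC, 26.7, 25.6 and 17.5 in OAC, 62.6, 45.7 and 47.0 in SHAM, and 14.2 and 16.6 in KT, where both libraries lay below all others.

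RT1-CE14 was among the steadiest class I genes, at 8.24 ± 0.107 FPKM in HC (SD, n = 2), 12.3 ± 1.20 in OAC (SD, n = 3), 32.4 ± 0.935 in SHAM (SD, n = 3) and 9.74 ± 0.835 in KT (SD, n = 2). RT1-CE16 was the least steady. It read 5.97 and 10.4 FPKM in HC, 19.3, 72.3 and 6.82 in OAC, 40.001, 15.3 and 15.4 in SHAM, and 4.78 and 56.1 in KT, so that the highest library was 10.6 times the lowest in OAC and 11.7 times in KT. The high libraries were OAC replicate 2, KT replicate 2 and SHAM replicate 1. RT1-A3, whose span on the genome holds that of RT1-CE16, had its highest values in SHAM replicate 1 (25.8 FPKM), OAC replicate 2 (21.9) and SHAM replicate 3 (14.03), followed by KT replicate 2 (13.8). Of 136 pairs of a tested member and a group, 12 spanned at least 3-fold between libraries, in 9 members, among them RT1-M2, RT1-S2, RT1-N1 and RT1-N2 over the OAC libraries and RT1-A1 over the HC libraries.

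**Figure D2:**
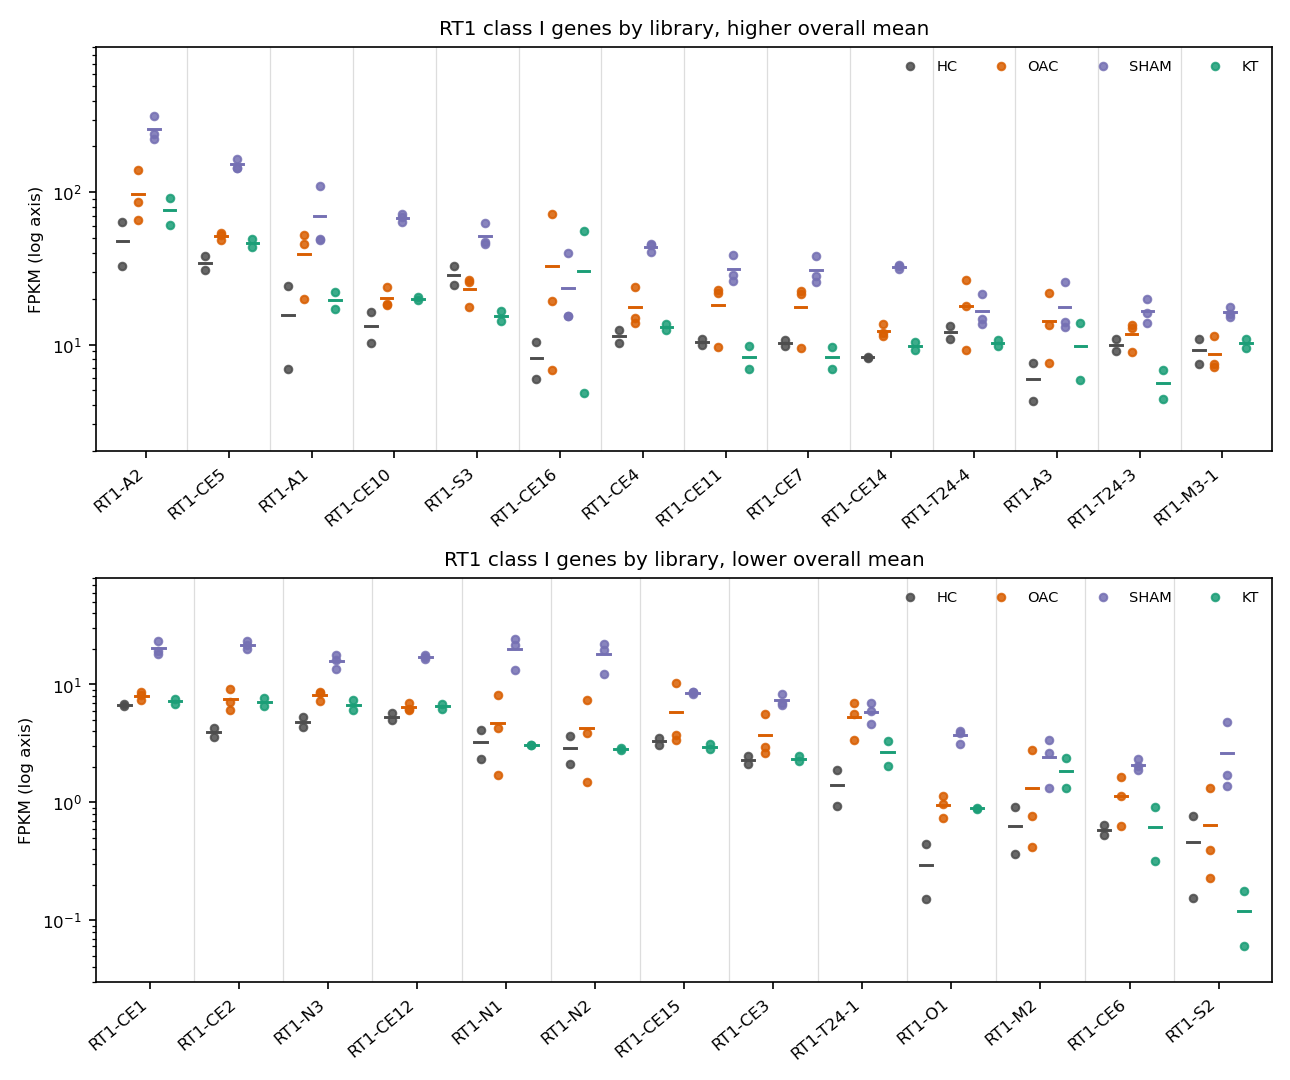
Level of the 27 measured class I genes in each library, in FPKM on log axes, split by overall mean into an upper and a lower panel. Points are libraries and bars group means. SHAM points are highest for most genes, as for RT1-CE5 at 145 to 167 FPKM, while RT1-CE16 spreads from 4.78 to 56.1 FPKM within KT.

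**Figure D3:**
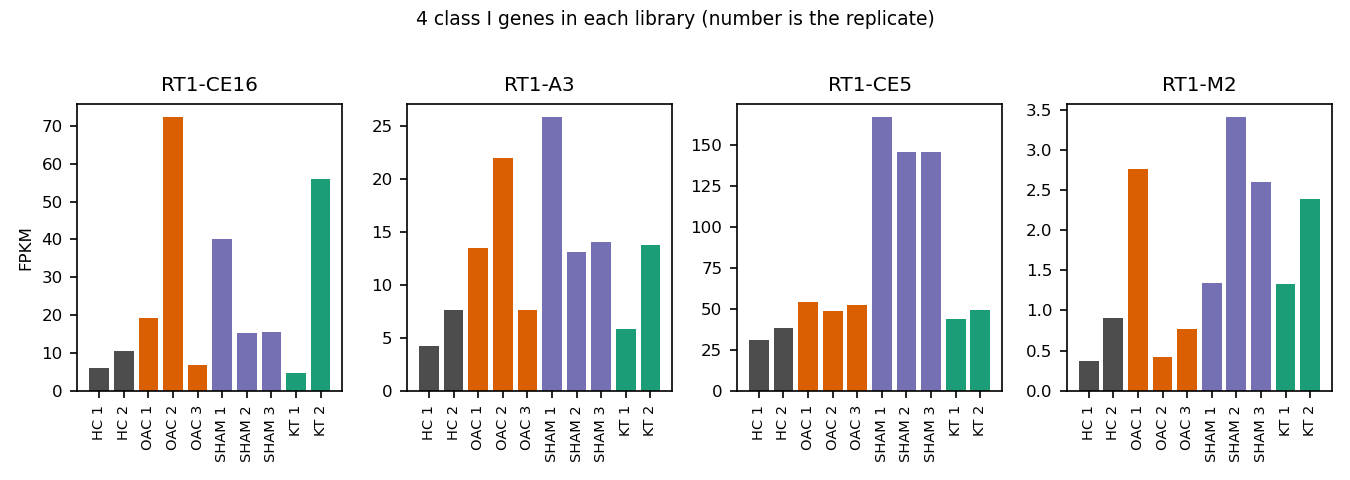
Level of RT1-CE16, RT1-A3, RT1-CE5 and RT1-M2 in each of the 10 libraries, in FPKM on linear axes that start at 0, one panel a gene. RT1-CE16 reaches 72.3 FPKM in OAC replicate 2 and 56.1 in KT replicate 2 with low values beside them, whereas RT1-CE5 stays at 43.9 to 54.0 in all OAC and KT libraries.

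Several rows of the table cannot be read as separate genes. Among the RT1 rows 22 pairs overlap on the same strand of rn6. The reads of RT1-CE7 and RT1-CE11 differed by at most 1.91% in every library, so the values of both rows may come from one set of reads. RT1-N1 and RT1-N2 differed by 3.40 to 11.1%. RT1-CE1 and RT1-CE12 share 153392 bases of their spans and RT1-CE14 shares 118602 with each of them, and other members lie inside these spans. How the authors counted reads that match several copies is not given here, so counts of class I genes below may count one change more than once.

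Summed over members, class I RNA came to 262 ± 63.9 FPKM in HC (SD, n = 2), 441 ± 97.7 in OAC (SD, n = 3), 978 ± 136 in SHAM (SD, n = 3) and 330 ± 76.1 in KT (SD, n = 2). Class II RNA came to 264 ± 40.3, 340 ± 24.8, 1589 ± 542 and 766 ± 349 FPKM in the same order. The ratio of the class II to the class I sum was 1.08 and 0.951 in HC, 0.724, 0.675 and 0.983 in OAC, 0.996, 2.37 and 1.65 in SHAM, and 1.88 and 2.64 in KT. The OAC ratios did not overlap those of SHAM or KT, while SHAM and KT overlapped. The mean KT sum was 0.747 times that of OAC in class I and 2.25 times in class II, though no member was called in that contrast. In tissue RNA, more cells of a type and more RNA per cell cannot be told apart.

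The first comparison asked what papain had done by 4 weeks, OAC against HC. A limma fit of log2(FPKM + 1) over all 11282 genes that passed the filter was used, and a gene was called at a Benjamini-Hochberg adjusted p under 0.05. Of the 34 members 7 rose, 7 of 27 in class I and 0 of 7 in class II, against 23.4% of all genes tested, and 0 fell, against 6.27%. The share of members, 20.6%, is near that background, and so is the share of class I, 25.9%. Whether the classes differ in this contrast was not tested. RT1-CE14 rose by 0.53 ± 0.10 (log2, SE; limma, Benjamini-Hochberg adjusted p = 0.0060) and RT1-CE2 by 0.77 ± 0.16 (adjusted p = 0.00824). RT1-CE5, RT1-CE10, RT1-N3 and RT1-O1 rose by 0.58, 0.59, 0.65 and 0.59, and RT1-T24-1 by 1.38, from 1.41 ± 0.672 FPKM in HC to 5.32 ± 1.83 in OAC (limma, Benjamini-Hochberg adjusted p = 0.00914). Of these 7 calls only those of RT1-CE14 and RT1-CE2 held in every alternative run and with each library left out, and that of RT1-CE10 was lost in 9 of 10 runs that left out a library.

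The classical genes were higher by the mean without passing: RT1-A1 differed by 1.402 ± 0.57 and RT1-A2 by 1.01 ± 0.36 (log2, SE; limma, Benjamini-Hochberg adjusted p = 0.0974 and 0.0674). Class II differences ran from 0.03 for RT1-DOb to 0.42 for RT1-Ba, and none had an unadjusted p under 0.05 (31.7% of all genes did and were higher, 10.2% did and were lower) or was called by limma-voom. The median difference was 0.53 over 27 class I genes and 0.31 over 7 class II genes, beside 0.14 over all genes. That shift over all genes became -0.02 when libraries were scaled by the median of ratios, under which 5 members were called. Over all genes 1731 were then called higher and 1356 lower, and the share of calls that were higher went from 78.9 to 56.1%. Without HC replicate 1, the library rich in muscle RNA, 3 members were called. Some run names in the authors' command line carry a tag that occurs only among papain libraries, so what the tag stands for cannot be told apart from papain here.

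SHAM against HC compared cartilage 10 weeks after papain that had received the GFP vector with untreated cartilage. Both classes were higher: 26 of 34 members rose, 21 of 27 in class I and 5 of 7 in class II, against 21% of all genes tested, and 0 fell, against 5.48%. Leaving out RT1-S2, which passed the filter through its SHAM libraries, all of the other 33 tested members had every SHAM library above both HC libraries, which held for 36.8% of all genes. The class II genes differed by a median of 2.31 (log2) and the class I genes by 1.48, beside 0.10 over all genes. RT1-Da was 6.11 times and RT1-Ba 6.25 times the HC mean, and RT1-Db2 6.85 times. In class I, RT1-O1 was 12.5 times its HC mean, though from only 0.296 FPKM, RT1-CE2 5.48 times, RT1-A2 5.43 times and RT1-CE5 4.44 times. Members that did not pass were RT1-A3, RT1-CE16, RT1-DOa, RT1-DOb, RT1-M2, RT1-S2, RT1-T24-3 and RT1-T24-4.

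Of the 26 calls, 21 held in every alternative run and with each library left out in turn. RT1-A1, RT1-CE6, RT1-CE15, RT1-M3-1 and RT1-S3 lost theirs without some library, each of them without HC replicate 1 (limma, Benjamini-Hochberg adjusted p = 0.122, 0.0519, 0.0823, 0.122 and 0.111).

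For SHAM against OAC, in which the vector and the time after papain differ together, the values are given as a description only, since this contrast put the family forward. The class II sum was 4.67 times and the class I sum 2.22 times that of OAC. RT1-Da, RT1-Db1 and RT1-Ba were at 4.89, 4.88 and 4.66 times their OAC means, RT1-Bb at 3.78 and RT1-Db2 at 5.24 times. RT1-N2 and RT1-N1, at 4.25 and 4.21 times, and RT1-S2 and RT1-O1, at 4.08 and 3.91 times, were the farthest apart in class I, and RT1-T24-4 and RT1-CE16 had lower means in SHAM.

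KT against SHAM is the treatment comparison: same time after papain, different vectors. By the limma fit 15 of 34 members fell, 14 of 27 in class I and 1 of 7 in class II, against 0.683% of all genes tested, and 0 rose, against 0.363%. The other 13 class I and 6 class II genes did not pass. Leaving out RT1-S2, 27 of 33 members were lower at an unadjusted p under 0.05 (9.05% of all genes) and 0 higher (5.54%). All SHAM libraries lay above both KT libraries in 27, 23 of 26 in class I and 4 of 7 in class II. This held for 17.4% of all genes. Limma-voom called 12 members, where over all genes it called 29 higher and 59 lower.

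RT1-CE14 fell by 1.64 ± 0.10 (log2, SE; limma, Benjamini-Hochberg adjusted p = 0.000335), with SHAM at 3.33 times the KT mean. RT1-CE5 fell by 1.69 ± 0.12 (adjusted p = 0.00048) and RT1-CE12 by 1.28 ± 0.10 (adjusted p = 0.000711). RT1-CE1, RT1-CE2 and RT1-CE10 fell by 1.36, 1.47 and 1.72. Of the non-classical genes RT1-O1 fell by 1.31 ± 0.15 (limma, Benjamini-Hochberg adjusted p = 0.00457), from 3.71 ± 0.490 FPKM in SHAM to 0.891 ± 0.00707 in KT. These 7 genes held their call in every alternative run and with each library left out.

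The other 8 calls were lost in at least one such run. RT1-CE4 (-1.67), RT1-N3 (-1.12), RT1-T24-3 (-1.42) and RT1-S3 (-1.68) were no longer called without KT replicate 2 (limma, Benjamini-Hochberg adjusted p = 0.0543, 0.095, 0.208 and 0.0605), RT1-S3 also without KT replicate 1 (0.0536) and RT1-T24-3 without SHAM replicate 1 (0.0839) or 2 (0.0864). RT1-CE3 (-1.31) was lost in 8 of 10 runs that left out a library, with an adjusted p of up to 0.244, and RT1-CE7 (-1.78) and RT1-CE11 (-1.78), which may be one signal, in 9 of 10. In all, 8 members were called without KT replicate 2.

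The largest log2 differences in class I, those of RT1-N1 and RT1-N2, did not pass. These genes, again an overlapping pair, had SHAM means 6.50 and 6.32 times those of KT (limma, Benjamini-Hochberg adjusted p = 0.0575 and 0.0592), with RT1-N1 at 13.3, 24.5 and 21.8 FPKM in the SHAM libraries. For RT1-A2 the difference was -1.76 ± 0.36 (log2, SE; adjusted p = 0.0721) and for RT1-A1 -1.67 ± 0.57 (adjusted p = 0.257). RT1-S2, near 0 in KT at 0.119 ± 0.082 FPKM against 2.64 ± 1.91 in SHAM, differed by -1.58 ± 0.41 (adjusted p = 0.152). RT1-CE16, RT1-A3 and RT1-M2 overlapped between the groups, with differences of -0.29, -0.83 and -0.25, and the mean FPKM of RT1-CE16 was 1.29 times as high in KT as in SHAM. RT1-M3-1, whose mouse counterpart presents formylated bacterial peptides, differed by -0.62 ± 0.20 (limma, Benjamini-Hochberg adjusted p = 0.241).

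In class II, RT1-Bb fell by 1.42 ± 0.24 (log2, SE; limma, Benjamini-Hochberg adjusted p = 0.0339), with SHAM at 2.66 times the KT mean. Its call was lost without KT replicate 1 (0.0864), any SHAM library (0.0596, 0.107 and 0.123 for replicates 1 to 3) or any OAC library (0.0503 to 0.0563). RT1-Db1 differed by -1.37 ± 0.30 (adjusted p = 0.0936), RT1-Da by -1.02 ± 0.34 (0.243), RT1-Db2 by -0.97 ± 0.35 (0.264) and RT1-Ba by -0.91 ± 0.36 (0.299). The median difference was -0.97 over the 7 class II genes and -1.42 over the 27 class I genes, beside -0.04 over all genes. Whether the classes differ in this contrast was not tested.

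**Figure D4:**
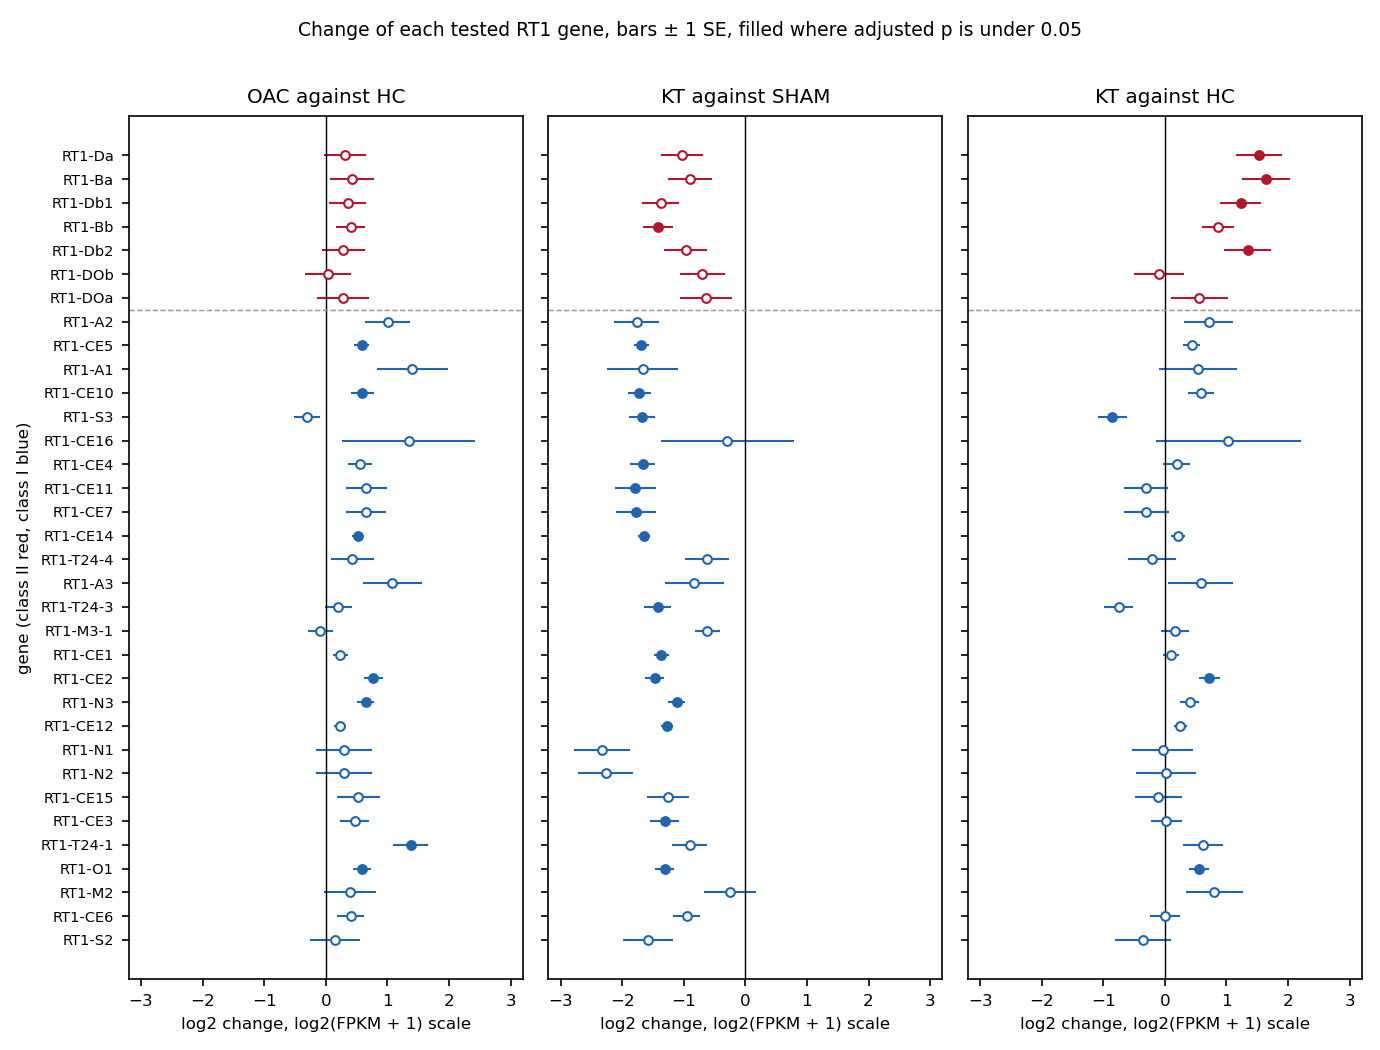
Log2 change, on the log2(FPKM + 1) scale, of the 34 tested RT1 genes in OAC against HC, KT against SHAM and KT against HC, one row a gene, with bars of 1 standard error either side and filled points where the adjusted p was under 0.05. In KT against SHAM every point lies left of 0 and 15 are filled. In KT against HC, 4 class II genes are filled at 1.23 to 1.65, and class I points run from -0.85 to 1.03 with 3 filled.

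KT against HC asked how far the treated cartilage stood from untreated. In the limma fit 6 of 34 members rose, 2 of 27 in class I and 4 of 7 in class II, against 14.3% of all genes tested, and RT1-S3 fell, where 3.95% of all genes did. RT1-Ba rose by 1.65 ± 0.39 (log2, SE; limma, Benjamini-Hochberg adjusted p = 0.0234), from 74.5 ± 10.8 FPKM in HC to 247 ± 110 in KT. RT1-Da rose by 1.53, RT1-Db2 by 1.34 and RT1-Db1 by 1.23, and RT1-Bb, at 0.86 ± 0.26, did not pass, nor did RT1-DOa (0.56) and RT1-DOb (-0.09). Their KT means were 3.31, 3.11, 3.12 and 2.42 times those of HC for RT1-Ba, RT1-Da, RT1-Db2 and RT1-Db1.

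In class I, RT1-CE2 rose by 0.72 and RT1-O1 by 0.55, and RT1-S3 fell by 0.85 to 0.534 times its HC mean (limma, Benjamini-Hochberg adjusted p = 0.0388). The median difference was 0.19 over 27 class I genes and 1.23 over 7 class II genes, beside 0.09 over all genes. All 7 calls of this comparison were lost in some run. Without KT replicate 2 or in a fit of these 4 libraries alone 0 members were called, 4 were called without KT replicate 1 and 1 without HC replicate 1, and leaving out replicate 2 or 3 of OAC, or replicate 3 of SHAM, gave 3 or 4. Over all genes, the share of calls that were higher went from 78.3 to 56.7% under median-of-ratios scaling. The fit of these 4 libraries alone called 9 of all genes higher and 1 lower, where the main fit called 1611 and 446. Without replicate 2 or 3 of OAC, or replicate 3 of SHAM, 1173, 1290 and 1385 genes were called higher.

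KT against OAC, in which vector and time after papain again differ together, gave 0 called members by limma or limma-voom, where 0.399% of all genes were called. At an unadjusted p under 0.05, 4 members were higher, all in class II (6.2% of all genes), and 6 lower, all in class I (12.2%). RT1-Ba, RT1-Da, RT1-Db1 and RT1-Db2 had both KT libraries above all OAC libraries, at 2.46, 2.49, 1.89 and 2.38 times the OAC mean (limma, Benjamini-Hochberg adjusted p = 0.159, 0.15, 0.194 and 0.181). Groups that did not overlap in this direction made up 4 of 34 members and 17.5% of all genes. In 8 members, all in class I, both KT libraries lay below all OAC libraries, as in 23.3% of all genes. Without KT replicate 1, 1 member was called.

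The machinery around class I was set beside the heavy chains. B2m, the beta-2-microglobulin light chain, read 284 and 372 FPKM in HC, 567, 690 and 572 in OAC, 2135, 2156 and 1634 in SHAM, and 628 and 879 in KT, with no SHAM value overlapping another group. Psmb8 and Psmb9, subunits of the immunoproteasome, were at 51.4 ± 1.84 and 100.1 ± 14.5 FPKM in SHAM (SD, n = 3) and 20.02 ± 1.44 and 23.6 ± 4.24 in KT (SD, n = 2). Tap1, a chain of the peptide transporter, was at 31.6 ± 5.39 FPKM in SHAM and 7.34 ± 0.827 in KT. Of 13 tested genes of class I loading, 9 fell in KT against SHAM (0.683% of all genes), 0 rose (0.363%) and 4 did not pass. Their median was -0.99 beside -0.04 over all genes.

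Those that fell were B2m (-1.398), Tap1 (-1.96), Psmb8 (-1.32), Psmb9 (-2.04), Psmb10 (-1.01), Tapbp (-1.05), Tapbpl (-0.99), Psme1 (-0.66) and Psme2 (-0.63). The peptide trimmer Erap1 differed by -0.60 (limma, Benjamini-Hochberg adjusted p = 0.115), and the chaperones Calr, Canx and Pdia3, which serve many other proteins, by 0.02, 0.08 and 0.06. Tap1, Psmb8, Psmb9 and Psmb10 held their call with each library left out. B2m lost it in 5 such runs (up to 0.1001 without SHAM replicate 2), Tapbp in 5 (0.27 without KT replicate 2), Tapbpl without KT replicate 2 (0.0929), and Psme1 and Psme2 in 8 runs each. In SHAM against HC 10 of the 13 rose (21% of all genes did), and 6 each in OAC against HC (23.4%) and in KT against HC (14.3%), of which 10, 4 and 2 held with each library left out. Tap2, marked with 2 copies, had 0 to 13 reads and was not tested, and Nlrc5 was not analysed here.

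Around class II the picture differed by gene. Cd74 had levels of 299 and 326 FPKM in HC, 474, 327 and 367 in OAC, 994, 2006 and 1519 in SHAM, and 567 and 871 in KT, and its KT against SHAM difference of -1.04 was not called (adjusted p = 0.20 by limma with Benjamini-Hochberg). Ciita, the class II transactivator, fell by 1.12, from 6.42 ± 1.91 FPKM in SHAM to 2.34 ± 0.224 in KT (adjusted p = 0.048), a call lost in 9 of 10 runs that left out a library. Ctss, a protease that trims the invariant chain, had overlapping values in the same contrast, at 161 ± 53.7 FPKM in SHAM and 179 ± 69.8 in KT. Ctsl and Lgmn, also endosomal proteases, had higher KT means, at 2.25 and 1.55 times SHAM, that were not called (limma, Benjamini-Hochberg adjusted p = 0.0512 and 0.133). Of 14 tested genes of class II loading and transcription 1 fell (0.683% of all genes), 0 rose (0.363%) and 13 did not pass, at a median of -0.02.

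The class II regulators other than Ciita, namely Rfx5, Rfxank, Nfya, Nfyb, Nfyc and Creb1, differed by -0.28 to 0.03 in KT against SHAM. In SHAM against HC, where 21% of all genes rose, 7 of the 14 did, among them Ctss (2.23), Cd74 (2.21), Ciita (1.29) and Ifi30, a lysosomal thiol reductase (1.21). In KT against HC (14.3% of all genes) also 7 rose, among them Ctss (2.38) and Lgmn (1.58) but not Ciita. In OAC against HC (23.4%) 6 rose. With each library left out, 7, 4 and 3 of these calls held.

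The interferon gamma axis was also compared between KT and SHAM. Irf1, a transcription factor that acts on class I promoters, fell by 1.60 ± 0.15 (log2, SE; limma, Benjamini-Hochberg adjusted p = 0.00167) and Irf9 by 0.84, the latter a call lost in 8 of 10 runs that left out a library. The receptor chains Ifngr1 and Ifngr2 and the kinases Jak1 and Jak2 differed by -0.15 to 0.25. Of 10 tested genes 2 fell (0.683% of all genes) and 0 rose (0.363%), at a median of -0.20. At an unadjusted p under 0.05 by limma, 4 were lower (9.05% of all genes) and 0 higher (5.54%). Ifng itself was too low to test, at 1 and 2 reads in HC, 0, 4 and 0 in OAC, 32, 12 and 27 in SHAM, and 3 and 9 in KT. In OAC against HC 10 of 10 tested genes of this list rose, where 23.4% of all genes did, and in SHAM against HC 9, where 21% did. With each library left out, 6 and 7 of these calls held. Those of Ifngr1 and Irf9 in OAC against HC were lost in 4 and 3 of 10 runs.

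**Figure D5:**
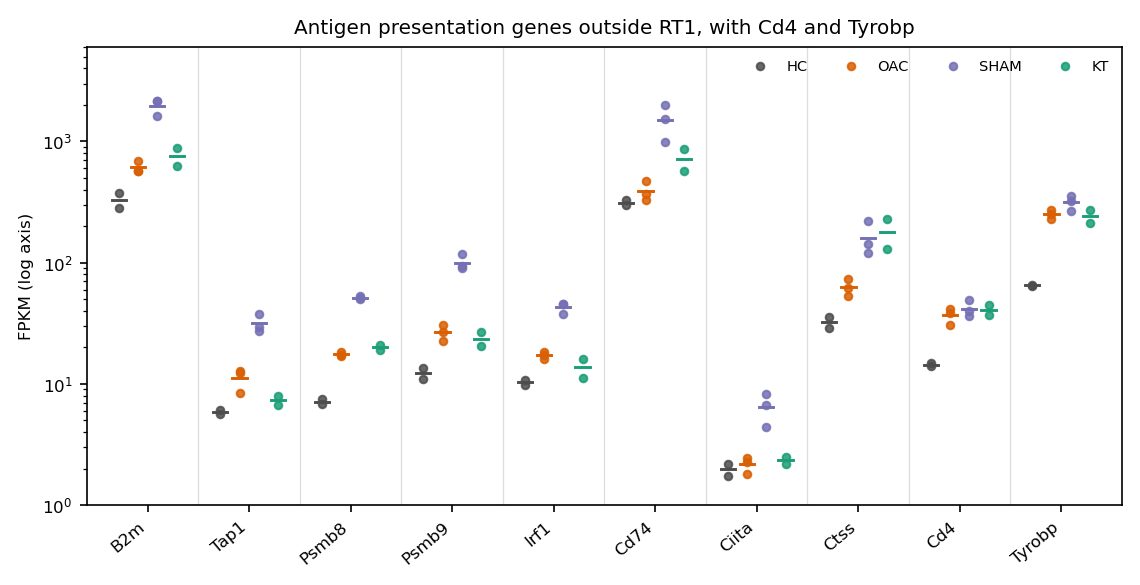
Level of genes that work with RT1 molecules, and of Cd4 and Tyrobp as markers of other cells, in each library, in FPKM on a log axis. Points are libraries and bars group means. B2m, Tap1, Psmb8, Psmb9 and Irf1 have all SHAM points above the KT points, whereas Ctss and Cd4 overlap between SHAM and KT.

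Cells that read RT1 molecules were traced by their receptors. Cd4, on helper T cells and on rat macrophages, was at 14.4 ± 0.474 FPKM in HC, 36.9 ± 5.64 in OAC, 41.5 ± 6.62 in SHAM and 40.7 ± 5.30 in KT. Cd8a was at 1.87 ± 0.256, 3.76 ± 1.92, 4.44 ± 0.596 and 2.03 ± 0.0877 FPKM, with a KT against SHAM difference of -0.84 (limma, Benjamini-Hochberg adjusted p = 0.231). Klrk1, the activating receptor NKG2D of natural killer and T cells, was the 1 of 12 receptor and co-stimulation genes that fell in that contrast, by 1.29 (adjusted p = 0.00633, and 0.0671 without KT replicate 2). None of them rose. Over all genes 0.683% fell in KT against SHAM and 0.363% rose. In SHAM against HC 9 of the 12 rose, where 21% of all genes did, among them Cd4 (1.45), Cd86 (1.84), Cd40 (1.23) and Klrk1 (1.34). Limma-voom called 7, where over all genes it called 1690 higher and 936 lower. Of the 9 calls, 6 held with each library left out, those of Cd8a, Klrd1 and Lag3 being lost in 5, 4 and 3 of 10 runs.

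Summed markers of cells that carry or accompany these molecules differed between groups, and the order of the groups was not the same in every list. The 16 macrophage markers summed to 952 to 1204 FPKM in HC, 2953 to 4073 in OAC, 5208 to 8611 in SHAM and 4544 to 5709 in KT. In KT against SHAM 0 of the 16 were called by limma or limma-voom. An unadjusted p under 0.05 was found for 2 that were higher (5.54% of all genes) and 4 that were lower (9.05%). In OAC against HC 15 of the 16 rose, beside 23.4% of all genes. In SHAM against HC 14 did, beside 21%, and in KT against HC 14, beside 14.3%. The B cell list, 10 markers, summed to 45.9 to 63.1, 101 to 126, 93.8 to 121 and 68.6 to 72.2 FPKM in the same order of groups, and the 8 dendritic cell markers in the table to 6.91 to 8.46, 11.3 to 14.04, 13.1 to 16.2 and 17.3 to 19.1 FPKM. Cd209a was at 0 in 6 libraries and no other marker found in the table was at 0 in all.

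T cell markers summed to 11.5 to 12.1 FPKM in HC, 15.5 to 23.4 in OAC, 24.8 to 29.3 in SHAM and 20.2 to 30.6 in KT, and those of natural killer and cytotoxic cells to 22.3 to 23.7, 76.2 to 135, 64.6 to 101 and 34.9 to 67.9. Neutrophil and marrow genes summed to 2050 to 2568, 12675 to 16252, 10228 to 12242 and 3684 to 8348 FPKM, and erythroid genes to 12530.2 to 13172.5, 20019 to 35696, 28335 to 38307 and 19172 to 20542. Synovial fibroblast genes were highest in KT, summing to 1015 to 1079 FPKM against 333 to 397 in SHAM. Of these sums Col3a1 gave 760 and 835 in KT and 252, 228 and 178 in SHAM. In that contrast 2 of 8, Col3a1 and Pdpn, rose, beside 0.363% of all genes. At an unadjusted p under 0.05, 6 of the 8 were higher, beside 5.54%, and 0 lower, beside 9.05%. Of the B cell, T cell, dendritic, cytotoxic, neutrophil and erythroid lists, 0 members were called in KT against SHAM by limma or limma-voom. At an unadjusted p under 0.05, 7 of 10, 1 of 10, 0 of 5, 4 of 6, 5 of 9 and 3 of 8 tested were lower, beside 9.05% of all genes. Higher were 0, 0, 1, 0, 0 and 0, beside 5.54%. The part of these cells in the RT1 values was not tested.

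The authors' deposited table of comparisons, from DESeq2 per the submitters' processing notes, gives a fold change for 46 of 49 RT1 rows in KT against SHAM. In it 24 were lower at an adjusted p under 0.05, 22 of 36 in class I and 2 of 10 in class II, against 1.91% of its rows, and 0 were higher, against 1.75%. For SHAM against HC the authors' deposited table has 31 of 46 higher, 25 in class I and 6 in class II, against 12.3% of its rows. For OAC against HC it has 4 of 44 higher, all in class I, against 13.3%.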

How the data were processed

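The authors deposited FPKM per RefSeq transcript, with its exon length and copy number, for the 10 libraries. A deposited table of their comparisons holds log2 fold changes with p-values and adjusted p-values. Tools named in the submitters' processing notes are STAR 2.5.3a, HOMER, DESeq2 1.18.1 and FastQC 0.11.2, with build rn6; annotation and multi-mapping settings are not given in the sources used here. The labels' protocols give stranded paired-end TruSeq libraries.

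Reads per library were recovered from the steps of the deposited FPKM values: 100% of low values lay within 0.15 of a whole read. Run names in the authors' command line carry a tag that occurs only among disease libraries and cannot be tied to single libraries. The test was limma's (version 3.58.1, R 4.3.3), on log2(FPKM + 1) and with its trend option, in 1 fit of 4 groups, two-sided, over 11282 genes whose mean reached 0.5 FPKM, adjusted by Benjamini-Hochberg over all of them, for 5 comparisons. The planned test of SHAM against OAC and its alternatives are not reported, because that contrast put the family forward. The log2(FPKM + 1) scale understates the change of low genes, and folds given as times are ratios of mean FPKM. The scripts were tested on simulated data.

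The members, gene lists, motifs and rules were chosen with earlier results of these data known. Named were every RT1 row, 10 fixed partner genes at any value (1 more, and a motif, are not reported here) and, of each list, up to 6 genes with the lowest adjusted p in a comparison; regulators and chaperones of the lists, Col3a1 and Pdpn were added after their values were seen. Promoter letters come from RefSeq (GRCr8). Alternatives were another pseudocount, other filters, quantile and median-of-ratios scaling, the 2 groups alone, a replicate block, limma-voom on recovered reads and each library left out.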

Additional observations from a re-analysis of the deposited data

How the results depend on the processing

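Of the called members none reversed direction in any alternative run. Counts of called members that moved by more than 1.5 times were as follows. Under quantile normalization OAC against HC had 4 in place of 7 and KT against HC 3 in place of 7. KT against HC had 0 with no filter on low values, 0 in a fit of its own libraries alone and 4 by limma-voom on recovered reads. Over all genes, quantile normalization gave 1727 higher and 1274 lower in OAC against HC and 948 and 621 in KT against HC. With no filter, with its own libraries and by limma-voom, KT against HC had 1279 and 359, 9 and 1, and 939 and 584. The main fit had 2641 and 707 in OAC against HC and 1611 and 446 in KT against HC.

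With each library left out in turn, the count ran from 3 to 9 in OAC against HC, 21 to 28 in SHAM against HC, 0 to 7 in KT against HC, 0 to 1 in KT against OAC and 8 to 15 in KT against SHAM. The lone library of a group is then assumed to vary like the others. Calls over all genes moved between these runs too.

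Replicate numbers are shared between groups. The 13 pairs of same-numbered libraries had correlations of -0.479 to 0.486 between their deviations from the group means, 4 of them over 0.1, so the numbers were not taken as a pairing. With a replicate block 7 members were called in OAC against HC, 27 in SHAM against HC and 4 in KT against HC. It gave 0 in KT against OAC and 17 in KT against SHAM. In that order, calls over all genes were 1831 higher and 375 lower, 1644 and 307, 933 and 183, 10 and 3, and 25 and 55. The main fit had 2641 and 707, 2368 and 618, 1611 and 446, 29 and 16, and 41 and 77.

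Groups of 2 and 3 libraries limit every test here, and no batch can be separated. Low members rest on few reads, and overlapping copies cannot be told apart.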

Other observations

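Outside RT1 the table holds genes of MHC-like molecules on other chromosomes, which give values of another kind. Azgp1, a secreted class I-like glycoprotein, read 2.55 and 5.95 FPKM in HC, 0.227, 0.117 and 0.407 in OAC, 0.551, 0.338 and 0.63 in SHAM, and 0.217 and 0.41 in KT, so that HC lay above all other libraries. It fell by 2.00 in OAC against HC, 1.73 in SHAM against HC and 1.92 in KT against HC (log2; limma, Benjamini-Hochberg adjusted p = 0.00151, 0.00212 and 0.00405). Procr, the endothelial protein C receptor, which has a class I-like fold, read 4.24 and 6.19 FPKM in HC, 8.30, 8.46 and 7.997 in OAC, 9.04, 11.2 and 6.99 in SHAM, and 15.4 and 14.4 in KT. It rose by 0.59 in OAC against HC, 0.70 in SHAM against HC and 1.37 in KT against HC (limma, Benjamini-Hochberg adjusted p = 0.0398, 0.024 and 0.00408). The calls in OAC and in SHAM against HC were lost in 7 and 3 runs that left out a library. In KT against SHAM 0 of 6 tested MHC-like genes were called by limma or limma-voom. An unadjusted p under 0.05 was found for 2 higher (5.54% of all genes) and 0 lower genes (9.05%).

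A row named LOC688090 lies outside the rule by its name, yet overlaps RT1-Bb over 4919 bases of chromosome 20 in rn6. Its level was 2.66 times higher in SHAM than in KT, the same ratio as RT1-Bb. The reads of both rows differed by 0 to 37.1% over the libraries.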
